A study of Sus scrofa with 23 samples.

Results

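Diabetes was compared with its absence in severely diseased coronary artery. The comparison held 9 of the 23 libraries of the series, chosen by their titles: 4 severe diabetic and 5 severe non-diabetic segments. Each library was poly-A selected RNA of a 3-mm coronary artery segment from a hypercholesterolemic Yorkshire swine, a farm breed of pig, graded by histopathology. All 5 groups carried hypercholesterolemia. The other groups used here were mild (4) and moderate (4) segments without diabetes and moderate segments with diabetes (6). How diabetes was induced, and the sex and age of the animals, are not given in the labels. Which animal gave which segment is not labelled, so p-values measure the spread between segments and come out too small if 1 animal gave several segments of a group. Severe non-diabetic replicate 5 carries conflicting labels. Its title and source name put it in that group, while the characteristics field reads moderate grade with diabetes, and it was kept by its title. Only group means and test results were used here, so no value of a single library, no range within a group and no result without that library can be given.

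An atherosclerotic plaque is a thickening of the inner arterial wall in which macrophages take up lipoprotein cholesterol and smooth muscle cells of the media change state and migrate. Chemokines recruit monocytes, neutrophils and T cells, and proteases remodel the matrix. High glucose can enter cells through facilitative transporters and be turned into sorbitol, an osmolyte that cells hold in balance with myo-inositol and amino acids. Diabetes is known for faster atherosclerosis and for inflamed plaques.

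A level below is the authors' mean of a group in normalized counts, which do not correct for gene length. A fold change is the log2 ratio, diabetic over non-diabetic, with its standard error after ±. The authors had obtained both with DESeq2. The threshold for calling a gene higher or lower was an adjusted p under 0.05. Libraries held about 8110000 to 12560000 reads in the severe non-diabetic and 11220000 to 14970000 in the severe diabetic group, as estimated from single-read steps in the low means. The tissue matched its label: contractile smooth muscle genes summed to 146322 without and 145715 with diabetes, and none of the 19 matched was at 0 in either group. Macrophage markers summed to 75629.5 and 85199, with none of 18 at 0. Markers of heart and striated muscle, a tissue that borders coronary arteries, made up 0.403% of all normalized counts in severe segments without and 0.0487% with diabetes. Their list shares PLN, a regulator of the calcium pump, with the contractile smooth muscle list. In bulk tissue fewer cells of a type and less RNA per cell cannot be told apart.

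The authors' deposited table gives 20869 genes an adjusted p. Of these, 1201 (5.75%) were higher and 1026 (4.92%) lower in severe diabetic segments. The rises were smaller than the falls: the median log2 fold change was 0.68 among the former and -1.14 among the latter. A change of at least 2-fold was reached by 332 of the rises and 597 of the falls. The split depended on scaling. When the severe groups were scaled to their total outside heart muscle genes, which moved every fold change by 0.092 on the log2 scale, 672 genes were higher and 1368 lower. All group means together summed to 10988718 without and 11672739 with diabetes, and heart muscle markers to 44261 and 5690. The shift thus came mainly from scaling to totals, and little from leaving heart muscle out. For 81.4% of the rises and 81.5% of the falls, the mild mean lay within 2-fold of the severe mean in animals without diabetes. The same share over all genes is not given here, so nothing particular to the called genes is read from these.

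**Figure D1:**
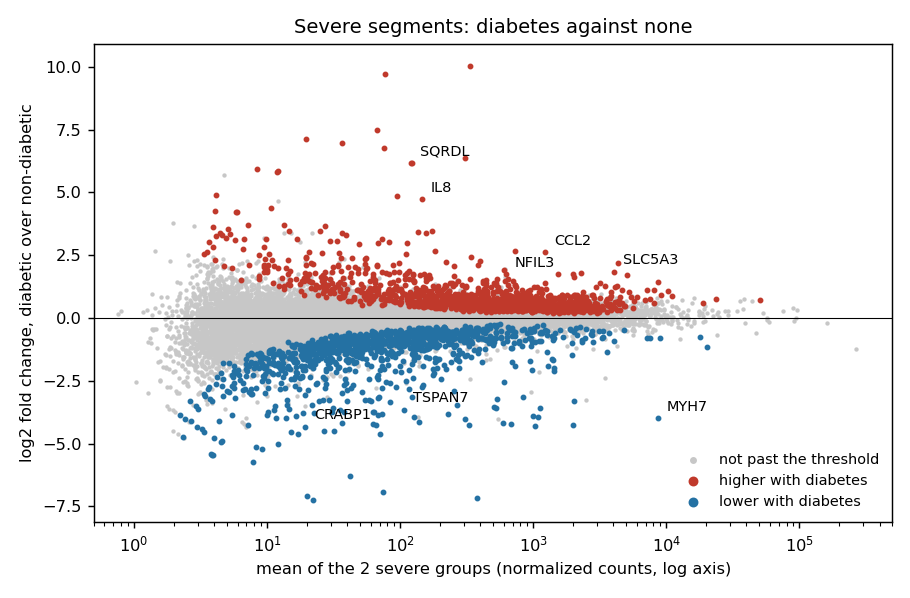
Log2 fold change of diabetic over non-diabetic severe segments (y axis) against the mean of both severe groups in normalized counts (x axis, log scale). Each point is a gene with an adjusted p, and uncalled genes of low mean in every group are not drawn. Red points are the 1201 genes called higher, blue the 1026 called lower and grey the others drawn. The median log2 fold change is 0.68 among the red and -1.14 among the blue points.

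The rise with the smallest adjusted p among genes with a symbol was SLC5A3, the sodium-coupled transporter that brings the osmolyte myo-inositol into cells (chromosome 13, 197688632 to 197723323 on Sscrofa11.1). Its authors' means were 1751 in severe segments without and 6283 with diabetes, against 1238 in mild, 1661 in moderate non-diabetic and 5669 in moderate diabetic segments. Both diabetic groups stood above all 3 groups without diabetes. The authors' deposited table gives a log2 fold change of 1.84 ± 0.18, which is 3.59-fold (adjusted p = 1.02e-20). NFIL3, a leucine zipper repressor that opposes clock activators, went from 289 to 961 (1.73 ± 0.22, adjusted p = 1.59e-11 in the authors' deposited table). ADAMTS4, an aggrecanase that cuts proteoglycans, went from 137 to 655 (2.26 ± 0.32, adjusted p = 3.67e-09 in the authors' deposited table). PDE4B, which breaks down cyclic AMP in immune cells, stood at 290.3 without and 753 with diabetes (1.37 ± 0.20 in the authors' deposited table). Complement factor B (CFB), the protease of the alternative pathway, stood at 35.5 without and 161 with diabetes (2.18 ± 0.31 in the authors' deposited table). SPHK1, the kinase that makes sphingosine 1-phosphate, stood at 58.4 without and 173 with diabetes (1.57 ± 0.23 in the authors' deposited table), and for each of these 3 genes the adjusted p was 1.02e-08 or less.

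Among genes with a symbol that averaged 20 or more over the severe groups, the largest rise was that of SQRDL, which oxidises hydrogen sulfide in mitochondria, at 3.36 without and 238 with diabetes. Its standard error was wide (6.17 ± 1.74, adjusted p = 0.00884 in the authors' deposited table), and its mean in moderate segments without diabetes was 48.1. IL8, the neutrophil chemokine also called CXCL8, went from 10.5 to 279 (4.72 ± 0.75, adjusted p = 2.16e-07 in the authors' deposited table). IRG1, which makes itaconate in activated macrophages, stood at 3.97 without and 50.2 with diabetes (3.65 ± 1.07 in the authors' deposited table). Pentraxin PTX3, made locally in inflamed tissue, stood at 25.3 without and 198 with diabetes (2.97 ± 0.83 in the authors' deposited table). Ficolin FCN1, a monocyte lectin of the complement system, stood at 49.2 without and 314 with diabetes (2.67 ± 0.46 in the authors' deposited table). GFPT2, which starts the hexosamine pathway from fructose 6-phosphate, stood at 199 without and 1263 with diabetes (2.67 ± 0.45, adjusted p = 1.10e-06 in the authors' deposited table). IFITM2, an interferon-induced membrane protein, was higher (11.3 without and 86.2 with diabetes), while its near relative IFITM3 was lower (188 without and 44.7 with diabetes); reads may be split between such copies, so neither direction is certain.

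The unnamed gene LOC102167708, annotated as a long non-coding RNA (chromosome 16, 6170442 to 6214121, between MYO10 and BASP1), had the smallest adjusted p of all rises. Its authors' means were 0.916, 3.23 and 6.56 in mild, moderate and severe segments without diabetes and 169.8 and 184 in moderate and severe segments with it. The authors' deposited table gives 4.85 ± 0.37 (adjusted p = 2.82e-34).

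**Figure D2:**
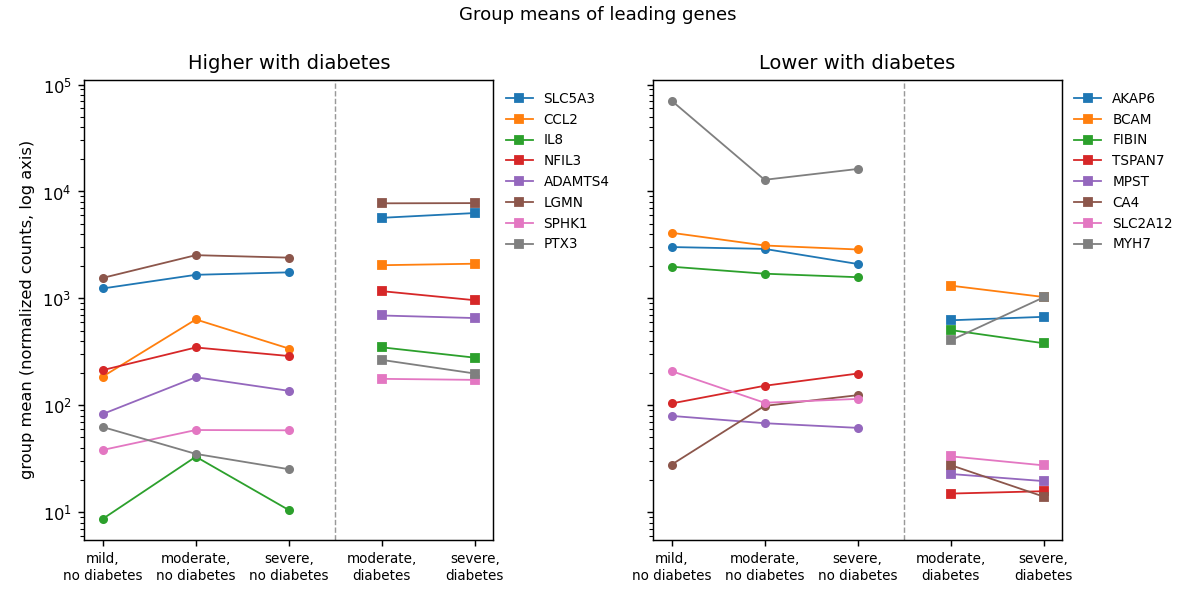
Authors' group means in normalized counts (y axis, log scale) in the 5 groups for 8 genes higher (left) and 8 lower (right) in severe diabetic segments; circles are groups without and squares groups with diabetes, and the dashed line parts them. SLC5A3 stands at 1751 in severe segments without and 6283 with diabetes, and the 2 diabetic groups lie close to each other for most genes.

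Among the falls, AKAP6, which anchors protein kinase A in muscle cells, had the smallest adjusted p of a gene with a symbol. Its means were 2098 without and 672 with diabetes (-1.64 ± 0.20, adjusted p = 8.95e-13 in the authors' deposited table), and mild segments stood at 3020.1. TSPAN7, a tetraspanin of the cell membrane, went from 198 to 15.7 (-3.65 ± 0.56, adjusted p = 6.64e-08 in the authors' deposited table). CA4, a membrane-bound carbonic anhydrase of capillaries, stood at 124 without and 14 with diabetes (-3.15 ± 0.46, adjusted p = 9.05e-09 in the authors' deposited table). MPST, which makes hydrogen sulfide, stood at 61.5 without and 19.5 with diabetes (-1.63 ± 0.26, adjusted p = 1.09e-07 in the authors' deposited table). L1CAM, an adhesion molecule of neurons and Schwann cells, fell from 505 to 171, and HFM1, a helicase of meiosis, from 399 to 128. The authors' deposited table puts them at -1.57 ± 0.25 and -1.64 ± 0.21, with adjusted p of 1.31e-07 and 1.57e-11. BCAM, a laminin receptor, was lower at 2867 without and 1030.4 with diabetes (-1.48 ± 0.24, adjusted p = 2.16e-07 in the authors' deposited table). Fin bud initiation factor FIBIN stood at 1578 without and 381 with diabetes (-2.05 ± 0.33, adjusted p = 3.20e-07 in the authors' deposited table). The falls of smallest adjusted p included LOC100624650, a transcribed pseudogene (chromosome X, 60626452 to 60627184), whose means were between 552 and 755 in the 3 groups without diabetes and 4.41 and 5.16 in the diabetic groups.

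Muscle genes made up much of the largest falls. Of genes with a symbol averaging 20 or more over the severe groups, 8 of the 15 that fell furthest were on the heart or skeletal muscle lists. Of heart and striated muscle markers 0 of 17 were higher and 12 lower, beside 5.75% and 4.92% of all genes with an adjusted p. Their median was -3.54, against 0.0094 over all those genes. The beta myosin heavy chain MYH7 averaged 16226 without and 1022 with diabetes, cardiac troponin T (TNNT2) 1956 and 99.6, and the muscle creatine kinase CKM 1288 and 69.1. The authors' deposited table puts them at -3.99 ± 1.41, -4.29 ± 1.39 and -4.22 ± 1.17, with adjusted p of 0.0456, 0.0266 and 0.00800. For MYH7 the adjusted p was 0.0654 once every gene with a p entered the adjustment. In mild segments MYH7 averaged 70686. The modelled variation of MYH7 between libraries of a group was 146% of its mean, against a median of 19.6% over the 12194 genes whose mean reached 50 in each group. The count of heart markers lower was 8 with adjustment over all genes with a p and 1 at an adjusted p under 0.01. Whether attached heart muscle carries other falls was not tested. PPARGC-1 (PPARGC1A), a coactivator of mitochondrial genes that heart muscle expresses highly, moved with them at 30.7 without and 4.25 with diabetes (-2.84 ± 0.96, adjusted p = 0.0358 in the authors' deposited table). Mitochondrially encoded genes stayed closer to zero, with 0 higher and 0 lower of 13 and a median of -0.07. Nuclear genes of oxidative phosphorylation counted 0 higher and 0 lower of 14, with a median of -0.09.

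Some genes of sugar and osmolyte handling changed, beside 5.75% of all genes higher and 4.92% lower. The shares in the glucose transporter, glycolysis and insulin lists rest on 1 or 2 genes each way, and nothing is read from them for the lists. Of osmolyte and polyol pathway genes 3 of 13 were higher and 0 lower: beside SLC5A3, these were SLC38A2, a neutral amino acid transporter (3434 without and 6999 with diabetes), and the heat shock protein HSPA4L (346 without and 521 with diabetes). The authors' deposited table gives 1.03 ± 0.26 (adjusted p = 0.00372) and 0.59 ± 0.19 (adjusted p = 0.0312). Of facilitative glucose transporters 1 of 11 were higher and 2 lower. SLC2A3, a high-affinity carrier of leukocytes and neurons, rose from 815 to 1464, while SLC2A12 fell from 115 to 27.4 and the urate carrier SLC2A9 (LOC100621442) from 161 to 98.8. Their log2 fold changes in the authors' deposited table were 0.84 ± 0.26, -2.06 ± 0.34 and -0.70 ± 0.22, with adjusted p of 0.0213, 6.67e-07 and 0.0196. Of glycolysis enzymes 2 of 19 were higher and 1 lower. Hexokinase HK2 was higher (625 without and 979 with diabetes; 0.65 ± 0.17, adjusted p = 0.00514 in the authors' deposited table), as was the lactate dehydrogenase subunit LDHA (2706 without and 4921 with diabetes; 0.86 ± 0.26, adjusted p = 0.0151 in the authors' deposited table). PFKM, the muscle phosphofructokinase, was lower (464 without and 169 with diabetes; -1.46 ± 0.51, adjusted p = 0.0421 in the authors' deposited table) and averaged 1339 in mild segments, where heart muscle markers were highest. In the insulin and IGF axis 2 of 16 were higher and 2 lower. The growth factor IGF1 stood at 676 without and 1764 with diabetes, and outside the list PAPP-A, the protease that frees IGF from a binding protein, at 698 without and 2359.8 with diabetes. The authors' deposited table puts them at 1.38 ± 0.37 (adjusted p = 0.00505) and 1.76 ± 0.28 (adjusted p = 2.83e-07). The binding protein IGFBP2 went the other way, from 952 to 484 (-0.98 ± 0.23, adjusted p = 0.000844 in the authors' deposited table). SLC16A7, a monocarboxylate carrier, stood at 1773 without and 3166 with diabetes (0.84 ± 0.13, adjusted p = 1.94e-07 in the authors' deposited table).

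Immediate early genes, which are switched on within minutes of a stimulus, formed the list with the most rises: 14 of 21 were higher and 0 lower, with a median of 1.07. JUNB, a subunit of the AP-1 factor, averaged 609.8 in severe segments without and 1428 with diabetes, against 569 in mild, 712 in moderate non-diabetic and 1859 in moderate diabetic segments. FOS, another AP-1 subunit, stood at 107 without and 574 with diabetes, and in moderate diabetic segments at 1439.6. The authors' deposited table gives 1.23 ± 0.21 (adjusted p = 1.17e-06) for JUNB and 2.42 ± 0.50 (adjusted p = 0.000113) for FOS. The zinc finger factors EGR1, EGR2 and EGR3 rose by log2 fold changes of 0.99, 0.95 and 1.75, with adjusted p of 0.0307, 0.0114 and 0.000671 in the authors' deposited table. IER3, a survival gene of stressed cells, stood at 39.3 without and 140.4 with diabetes (1.83 ± 0.36, adjusted p = 4.48e-05 in the authors' deposited table). DUSP1, the phosphatase that ends MAP kinase signals, stood at 361 without and 769 with diabetes (1.09 ± 0.25, adjusted p = 0.00103 in the authors' deposited table). MYC, a growth regulator, stood at 210.2 without and 401 with diabetes (0.93 ± 0.23, adjusted p = 0.00210 in the authors' deposited table). The count was 11 when scaled to the total outside heart muscle genes and 9 at an adjusted p under 0.01.

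Circadian clock genes split into opposite directions: 3 of 17 were higher and 5 lower, beside 5.75% and 4.92% of all genes. Higher were ARNTL, the activator that pairs with CLOCK, at 129 without and 296 with diabetes, NFIL3 above, and BHLHE40, a repressor of clock activators, at 1229 without and 2158 with diabetes. The period repressors were lower, with PER1 at 1183 without and 673 with diabetes, PER2 at 149.7 without and 34.6 with diabetes and PER3 at 425 without and 162 with diabetes. So were the output factors DBP (LOC100524747, 54.5 without and 13.8 with diabetes) and HLF (512 without and 209 with diabetes), which bind the same sites as NFIL3. In the authors' deposited table ARNTL stands at 1.20 ± 0.31 and PER2 at -2.10 ± 0.44, with adjusted p of 0.00418 and 0.000189. For PER3, DBP and HLF the authors' deposited table gives -1.40 ± 0.26, -1.99 ± 0.41 and -1.29 ± 0.30, with adjusted p of 1.97e-05, 0.000155 and 0.00117. Of glucocorticoid-responsive genes 3 of 17 were higher and 3 lower: SGK1 rose (0.93 ± 0.23, adjusted p = 0.00180), while TSC22D3 (-0.86 ± 0.31, adjusted p = 0.0455) and ZBTB16 (-0.92 ± 0.31, adjusted p = 0.0326) fell in the authors' deposited table.

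**Figure D3:**
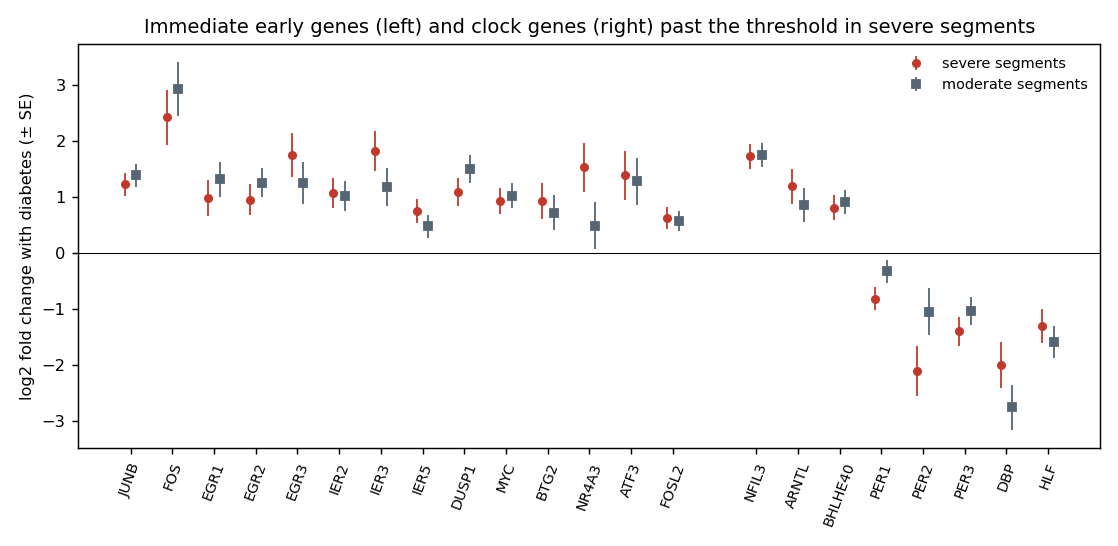
Log2 fold change with diabetes ± its standard error (y axis) in severe (red circles) and moderate (grey squares) segments, for the 14 immediate early genes and the 8 clock genes past the threshold in severe segments. All 14 immediate early genes lie above zero in both, and the period genes, DBP and HLF lie below it in both.

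Some chemokines and chemokine receptors rose, beside 5.75% of all genes. Of chemokine ligands 5 of 20 were higher and 0 lower, and of receptors 5 of 17 were higher and 0 lower. The monocyte chemokine CCL2 averaged 339.7 without and 2109.5 with diabetes, with 186 in mild, 635 in moderate non-diabetic and 2043 in moderate diabetic segments. The authors' deposited table gives 2.63 ± 0.41, which is 6.21-fold (adjusted p = 8.49e-08). CCL8, a related monocyte chemokine, stood at 18.3 without and 147 with diabetes (3.01 ± 0.65, adjusted p = 0.000339 in the authors' deposited table). The neutrophil chemokine CXCL2 (CXCL2_2, a copy that may share reads with another) stood at 77.5 without and 252 with diabetes (1.70 ± 0.35, adjusted p = 0.000143 from the authors' deposited table). Among receptors, CXCR4, held by many leukocytes, stood at 412 without and 1034 with diabetes, CCR1, of monocytes, at 646 without and 1499 with diabetes, and CCR6, of lymphocytes, at 15.9 without and 65.4 with diabetes. The authors' deposited table puts these 3 at 1.33 ± 0.38, 1.22 ± 0.36 and 2.03 ± 0.53, with adjusted p of 0.0114, 0.0137 and 0.00410. ACKR3, a scavenging receptor for CXCL12, was higher too (1.32 ± 0.30, adjusted p = 0.000662 in the authors' deposited table).

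Neutrophil genes were higher in 5 of 11 measured members, beside 5.75% of all genes, and 0 were lower. The calgranulin S100A12 averaged 27.2 in severe non-diabetic and 283 in severe diabetic segments; its relative S100A8 averaged 7.18 and 71.6. ARG1, an enzyme that breaks down arginine, averaged 28.6 and 319. The authors' deposited table puts them at 3.37 ± 0.60, 3.30 ± 0.70 and 3.47 ± 0.71, with adjusted p of 5.71e-06, 0.000236 and 0.000102. Moderate segments without diabetes averaged 114, 25.3 and 129.6. The neutrophil receptor CXCR2 stood at 11.8 without and 42.3 with diabetes (1.84 ± 0.55, adjusted p = 0.0147 in the authors' deposited table). The whole neutrophil list summed to 4299 without and 8249 with diabetes, with 1 of 13 members at 0 in each group.

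Some genes of other inflammatory lists rose, beside 5.75% of all genes higher and 4.92% lower. In the inflammasome and interleukin 1 system 3 of 15 were higher and 0 lower. IL1A, an alarm cytokine, stood at 15.5 without and 56.4 with diabetes (1.86 ± 0.42, adjusted p = 0.000601 in the authors' deposited table), and IL1RL1, the interleukin 33 receptor, at 2021 without and 4950.2 with diabetes (1.29 ± 0.32, adjusted p = 0.00269 from the authors' deposited table). Of Toll-like receptors and adaptors 4 of 18 were higher and 1 lower. TLR7, a sensor of RNA, and TLR2, a sensor of bacterial lipopeptide, rose by 1.51 ± 0.29 and 1.11 ± 0.26, while TLR5, a sensor of flagellin, fell (-0.95 ± 0.26) in the authors' deposited table, with adjusted p of 3.25e-05, 0.000831 and 0.00721. Of NF-kappa B subunits and feedback inhibitors 5 of 17 were higher and 0 lower, led by the subunit REL (495 without and 688 with diabetes; 0.47 ± 0.13, adjusted p = 0.00796 in the authors' deposited table). That count was 2 with adjustment over all genes with a p and 1 under either other scaling. Of leukocyte adhesion molecules 5 of 20 were higher and 1 lower: the integrin ITGA4 stood at 407 without and 851 with diabetes, and the endothelial ligand ICAM-1 at 337 without and 657 with diabetes (1.06 ± 0.22 and 0.96 ± 0.26, adjusted p = 0.000223 and 0.00598 in the authors' deposited table). PTGS2, the inducible prostaglandin synthase, stood at 103 without and 248 with diabetes (1.27 ± 0.33, adjusted p = 0.00425 in the authors' deposited table). TNFAIP6, which modifies hyaluronan in inflamed tissue, stood at 97.5 without and 407 with diabetes (2.06 ± 0.35, adjusted p = 1.35e-06 in the authors' deposited table).

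Genes of lipid-loaded macrophages and general macrophage markers were counted apart, beside 5.75% of all genes higher. Of the former 8 of 18 were higher and 0 lower (median 0.61), and of the latter 1 of 18 were higher and 0 lower (median 0.38); the difference between the lists was not tested. The fatty acid carrier FABP5 averaged 986 without and 3065 with diabetes, the scavenger receptor MSR1 2551 and 5192, and the chitinase-like protein CHI3L1 4662 and 12613. The authors' deposited table puts them at 1.64 ± 0.33, 1.02 ± 0.27 and 1.44 ± 0.43, with adjusted p of 9.35e-05, 0.00451 and 0.0152. Galectin 3 (LGALS3_1) stood at 5074 without and 11080.0 with diabetes (1.13 ± 0.31, adjusted p = 0.00681 in the authors' deposited table). The lipid droplet coat PLIN2 stood at 1419.5 without and 2672 with diabetes (0.91 ± 0.29, adjusted p = 0.0217 from the authors' deposited table). Of the macrophage markers, LAPTM5, a lysosomal protein of blood cells, passed (0.84 ± 0.25, adjusted p = 0.0155), and the growth factor receptor CSF1R did not (0.70 ± 0.25, adjusted p = 0.0545) in the authors' deposited table. The summed level of macrophage markers was 1.13 times as high with diabetes; its part in these rises was not tested.

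Lysosomal and lipid pathways rose in some members, beside 5.75% of all genes higher and 4.92% lower. Of cathepsins and cystatins 3 of 12 were higher and 0 lower. Legumain (LGMN), an asparaginyl protease of lysosomes listed with them, had the smallest adjusted p at 2404 without and 7781 with diabetes (1.69 ± 0.28, adjusted p = 8.02e-07 in the authors' deposited table). CTSB stood at 17535 without and 29642 with diabetes (0.76 ± 0.25, adjusted p = 0.0316 in the authors' deposited table), and CTSL at 1238 without and 2349 with diabetes (0.92 ± 0.28, adjusted p = 0.0168 from the authors' deposited table). Of lysosomal hydrolases and proton pump genes 4 of 21 were higher and 0 lower, and 2 were higher under either other scaling. Of cholesterol efflux genes and LXR targets 3 of 15 were higher and 0 lower: the sterol receptor NR1H3 itself (738 without and 1264 with diabetes), the lysosomal cholesterol exporter NPC1 (910.0 without and 1317 with diabetes) and the phospholipid remodeller LPCAT3 (167 without and 262 with diabetes). In the authors' deposited table they stand at 0.78 ± 0.22, 0.53 ± 0.15 and 0.65 ± 0.14, with adjusted p of 0.00974, 0.0116 and 0.000500. Cholesterol synthesis genes were mixed, with 2 higher and 2 lower of 21.

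Of T cell genes 6 of 18 were higher and 1 lower, beside 5.75% and 4.92% of all genes. The costimulator CD28 (LOC100515419) averaged 17.9 without and 91.4 with diabetes, ICOS 3.56 and 30.1, and the receptor chain CD3D 12.4 and 40.1. In the authors' deposited table they stand at 2.33 ± 0.47, 3.13 ± 0.72 and 1.70 ± 0.49, with adjusted p of 9.15e-05, 0.000920 and 0.0111. CD8A, the alpha chain of the cytotoxic coreceptor, was higher (9.60 without and 31.5 with diabetes), while the name CD8B, its beta chain, was lower (295 without and 64.7 with diabetes) and averaged 869.5 in mild segments. The authors' deposited table gives 1.73 ± 0.50 and -2.19 ± 0.52, with adjusted p of 0.0120 and 0.00117. In mild segments CD3D averaged 12.9. The whole T cell list summed to 744 without and 850.3 with diabetes. That sum includes CD8B, whose fall offsets rises of other members. Of the 18 members with an adjusted p, 15 had a positive fold change, with a median of 1.09. Of dendritic cell markers 2 of 12 were higher and 0 lower, with the chemokine receptor XCR1 of cross-presenting cells at 185 without and 444 with diabetes (1.26 ± 0.23, adjusted p = 9.43e-06 from the authors' deposited table). Of natural killer and cytotoxic genes 0 of 13 were higher and 0 lower, and of MHC and antigen presentation genes 0 of 22 were higher and 0 lower. Of interferon-stimulated genes 0 of 23 were higher and 1 lower: OAS2, a sensor of double-stranded RNA, stood at 1031 without and 521 with diabetes (-0.98 ± 0.26, adjusted p = 0.00570 in the authors' deposited table).

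A few genes of the wall's own cells were lower, beside 4.92% of all genes lower and 5.75% higher. Of contractile smooth muscle genes 0 of 19 were higher and 3 lower, with a median of -0.35. The smooth muscle myosin heavy chain MYH11 averaged 9106 in severe segments without and 5203 with diabetes, after 12201 in mild, 11668 in moderate non-diabetic and 7067 in moderate diabetic segments. The myosin light chain MYL9 averaged 3713 and 1912. LDB3, at 1159.8 without and 305 with diabetes, is also a heart muscle protein and averaged 3705 in mild segments. The authors' deposited table puts them at -0.81 ± 0.24, -0.96 ± 0.31 and -1.93 ± 0.63, with adjusted p of 0.0160, 0.0275 and 0.0299. Of modulated smooth muscle genes 4 of 17 were higher and 1 lower. KLF4, a factor that represses contractile genes, stood at 244 without and 418 with diabetes, and TNFRSF11B, the decoy receptor osteoprotegerin, at 243 without and 452 with diabetes (0.78 ± 0.25 and 0.90 ± 0.23, adjusted p = 0.0276 and 0.00398 in the authors' deposited table). Endothelial markers counted 0 higher and 0 lower of 16, with MMRN2 counted by its copy MMRN2_1 (672 without and 209 with diabetes; -1.68 ± 0.97, adjusted p = 0.283 in the authors' deposited table). The other copy, MMRN2_2, was called higher (23.1 without and 249.9 with diabetes; 3.44 ± 0.92, adjusted p = 0.00548 in the authors' deposited table); reads may be split between the copies, so neither direction is certain. Nitric oxide synthase NOS3 stood at 176 without and 130.2 with diabetes (-0.43 ± 0.20, p = 0.0364, adjusted p = 0.171 from the authors' deposited table). Perivascular adipocyte genes counted 0 and 0 of 13, and elastic fibre genes 0 and 0 of 18. Of nerve and Schwann cell genes 0 of 12 were higher and 3 lower: L1CAM above, NCAM1 (1225 without and 712 with diabetes) and S100B (LOC100623510, 613 without and 313 with diabetes). The authors' deposited table gives -0.78 ± 0.24 and -0.97 ± 0.28, with adjusted p of 0.0203 and 0.0112.

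Some matrix proteases and matrix genes changed, beside 5.75% of all genes higher and 4.92% lower. A count of 1 or 2 genes each way is not read as a change of its list. Of metalloproteinases and their TIMP inhibitors 2 of 13 were higher and 1 lower. The gelatinase MMP2 averaged 4288 without and 7665 with diabetes, and MMP19, a stromal protease, 398 and 774 (0.84 ± 0.23 and 0.96 ± 0.28, adjusted p = 0.00820 and 0.0108 from the authors' deposited table). Of collagens 0 of 16 were higher and 1 lower. Of proteoglycan and hyaluronan genes 3 of 17 were higher and 1 lower; perlecan (HSPG2), a basement membrane proteoglycan, was lower at 11418 without and 6660.2 with diabetes (-0.78 ± 0.26, adjusted p = 0.0302 in the authors' deposited table). In the TGF-beta system 2 of 19 were higher and 1 lower. LTBP4, which stores latent TGF-beta on elastic fibres, fell from 4149.5 to 2367 (-0.81 ± 0.19, adjusted p = 0.00144 in the authors' deposited table). Scaled to the total outside heart muscle genes, KLF4 and CTSB no longer passed, nor did HSPA4L. With adjustment over all genes with a p, PFKM, PPARGC-1 and TSC22D3 did not pass. The phosphate carrier SLC20A1, on the calcification list, stood at 722 without and 1469.8 with diabetes (1.02 ± 0.19, adjusted p = 1.81e-05 in the authors' deposited table).

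Some genes of stress responses rose, beside 5.75% of all genes. Of unfolded protein response genes 6 of 24 were higher and 0 lower (median 0.47), and 3 were higher when scaled to the total outside heart muscle genes. The chaperone partner DNAJC3 averaged 726 and 1076, and the pseudokinase TRIB3 781 and 1187 (0.57 ± 0.11 and 0.60 ± 0.18, adjusted p = 2.54e-05 and 0.0129 from the authors' deposited table). Of antioxidant enzymes 4 of 24 were higher and 0 lower. Thioredoxin reductase TXNRD1 stood at 1135 without and 2129 with diabetes and mitochondrial SOD2 at 2446 without and 5735 with diabetes (0.91 ± 0.20 and 1.23 ± 0.42, adjusted p = 0.000453 and 0.0369 in the authors' deposited table). SOD2 did not pass under adjustment over all genes with a p, or when scaled to the total outside heart muscle genes. Of hypoxia genes 3 of 15 were higher and 0 lower, with HIF1A, the oxygen-regulated subunit, at 3347 without and 5359 with diabetes (0.68 ± 0.16, adjusted p = 0.000920 from the authors' deposited table). Of iron and haem genes 3 of 19 were higher and 0 lower: lipocalin LCN2, which binds bacterial iron carriers, stood at 81.7 without and 237 with diabetes and ceruloplasmin CP at 414 without and 913 with diabetes (1.53 ± 0.31 and 1.14 ± 0.28, adjusted p = 7.79e-05 and 0.00180 from the authors' deposited table). Of complement genes 3 of 23 were higher and 0 lower; beside CFB, the pore component C7 stood at 6710.4 without and 14036 with diabetes (1.06 ± 0.30, adjusted p = 0.00891 from the authors' deposited table). Of coagulation and fibrinolysis genes 4 of 21 were higher and 0 lower. Thrombomodulin THBD stood at 409.8 without and 657 with diabetes and the urokinase receptor PLAUR at 256 without and 439 with diabetes (0.68 ± 0.20 and 0.78 ± 0.23, adjusted p = 0.0111 and 0.0153 in the authors' deposited table). That count was 2 with adjustment over all genes with a p and under either other scaling. Cytosolic ribosomal protein genes counted 0 higher and 0 lower of 23, though all 23 fold changes were positive. Their median was 0.31, against 0.0094 over all genes with an adjusted p and 0.04 for the list in moderate segments. Cell cycle genes counted 1 and 0 of 22.

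**Figure D4:**
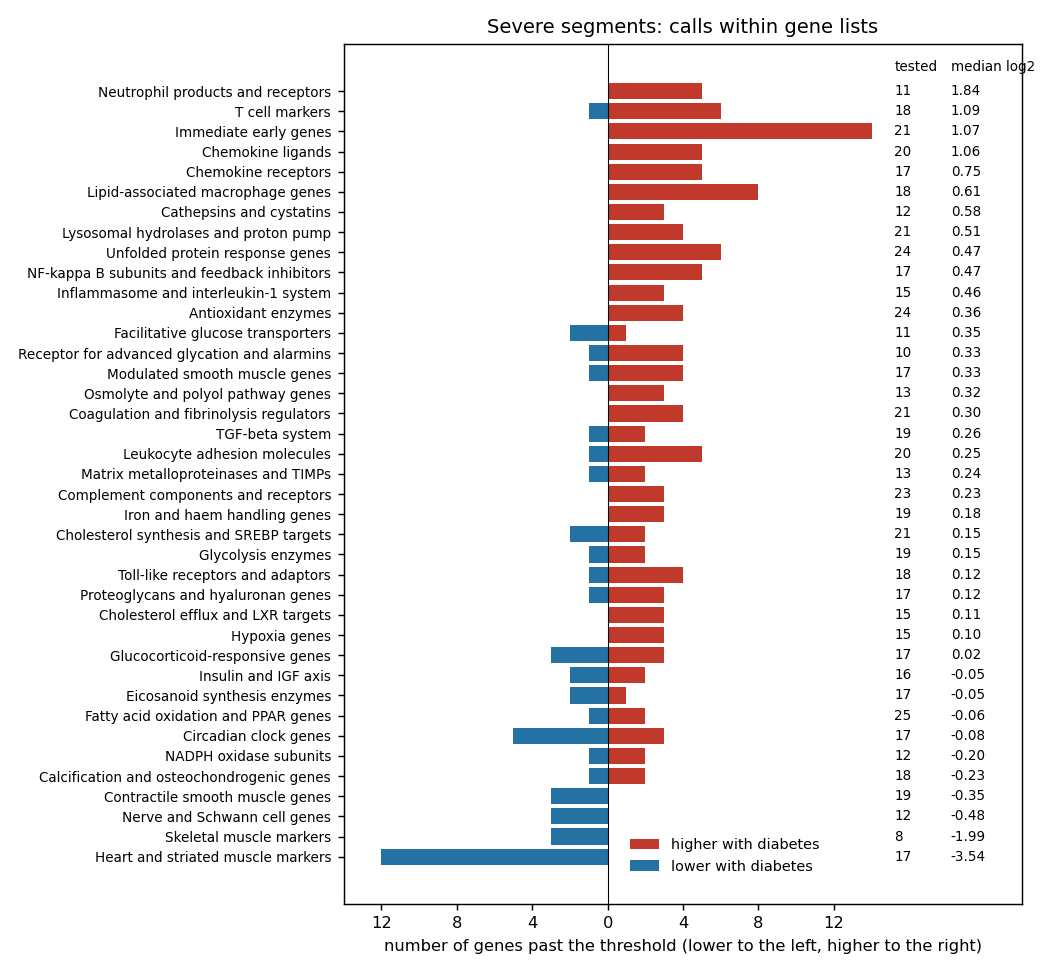
Number of genes higher (red, to the right) and lower (blue, to the left) in severe diabetic segments in those of the 62 lists with at least 3 calls, with the number tested and the median log2 fold change of the list at the right. Gene families described only in the closing section are not drawn. Immediate early genes reach 14 of 21 to the right and heart muscle markers 12 of 17 to the left; lists share members, such as CTSB and PER1.

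Moderate segments gave a second comparison of diabetes, of 6 against 4 libraries, that shares no library with the severe one. There, 1806 genes (8.2%) were higher and 1863 (8.46%) lower of 22025 with an adjusted p. Of the 1201 severe rises, 745 (62.0%) were also called higher in moderate segments, which is 41.3% of the moderate rises. Of the 1026 severe falls, 703 (68.5%) were also called lower, which is 37.7% of the moderate falls. The sign was the same in moderate segments for 98.8% of the rises and 98.3% of the falls. Over all genes with an adjusted p, called or not, it was the same for 72.2% of the 10607 with a positive and 77.1% of the 10262 with a negative severe fold change. For 95.0% of the severe rises both diabetic means lay above all 3 means without diabetes, and for 94.8% of the falls both lay below. Over all those genes the shares were 54.3% and 58.7%. The same animals may have given segments of both grades, so the comparisons are not known to be independent. Only DUOX2, an oxidase that makes hydrogen peroxide, was called in opposite directions: its means were 19.4 and 56.3 in moderate and 32.96 and 8.72 in severe segments, without and with diabetes. The authors' deposited table gives 1.56 ± 0.56 (adjusted p = 0.0375) in moderate and -1.89 ± 0.61 (adjusted p = 0.0265) in severe segments.

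The difference of the 2 contrasts, severe minus moderate, was computed here from the deposited fold changes and standard errors and tested with a two-sided Wald test. It covered the 17408 genes whose mean reached 10 over these 4 groups; 2 (0.0115%) passed at an adjusted p under 0.05, and 706 (4.06%) had an unadjusted p under 0.05. The 2 were LOC100512344 and FMN1, an actin-nucleating formin. FMN1 rose with diabetes in moderate segments, from 47.2 to 122, and stood at 85.5 and 98.6 in severe segments; the difference was -1.19 ± 0.25 (adjusted p = 0.0281). LOC100512344 stood at 1.38 in severe segments without diabetes and between 60.8 and 149.6 in the other 4 groups, a difference of 6.06 ± 1.26 (adjusted p = 0.0237). DUOX2 differed by -3.45 ± 0.83, short of the threshold (adjusted p = 0.0861).

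**Figure D5:**
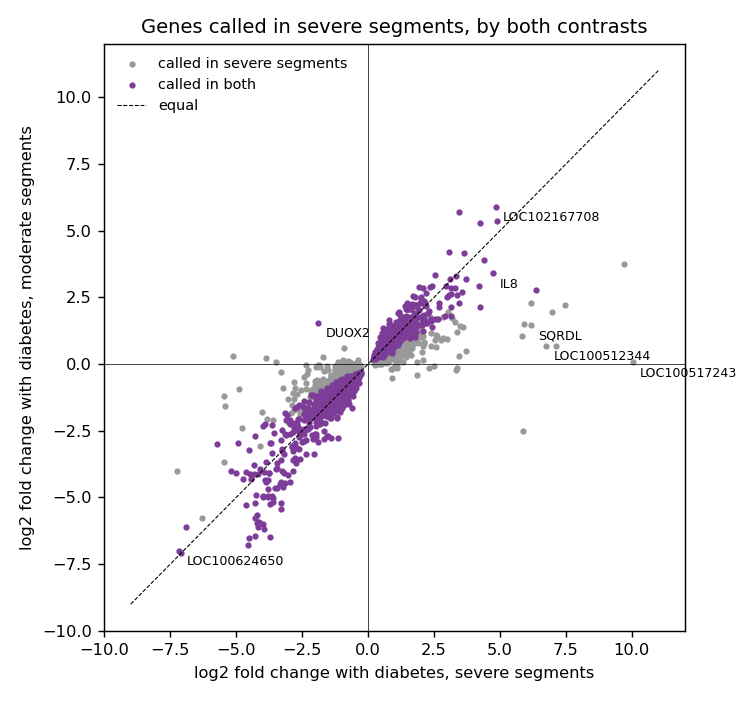
Log2 fold change with diabetes in severe (x axis) against moderate segments (y axis) for the genes called in severe segments, with the line of equal change dashed. Purple points were called in both contrasts and grey points in severe segments alone. Most points follow the line; DUOX2 lies in the opposite quadrant, and LOC100517243 lies near zero in moderate segments at 10.04 ± 1.78 in severe ones.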

How the data were processed

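RNA of 23 coronary segments had been extracted with Trizol, poly-A selected and primed at random, per the labels' protocols. The authors used the build Sscrofa11.1 and DESeq2, per the submitters' processing notes; no source used here gives versions, aligner, counter or annotation. In all, the authors deposited 6 tables, 1 per comparison, with no value of a single library. Per the file headers they hold group means of normalized counts (a non-negative signal), log2 fold changes with standard errors, and p-values with their adjusted p-values. The test score in the authors' deposited table has its sign opposite to the fold change for 100% of genes, so directions follow the means. Fold changes used here are diabetic over non-diabetic. A p computed from fold change and standard error differed from the deposited p-value by at most 4.05e-15.

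Of 35252 lines, 24 held a date in place of a name and were left out. Of the 35228 names left, 30186 had a fold change, 30151 a p and 20869 an adjusted p, and 21515 (61.1%) were found in RefSeq's gene table for Sscrofa11.1, the source of all coordinates (1-based). A suffix _1 or _2 marks copies of a name. Group sizes solved from the standard errors, with 1 spread per gene over all groups, were 5.00 for severe without and 4.00 for severe with diabetes, as the titles give them.

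With no values per library, the planned count test could not be run, and the deposited DESeq2 results were used, called where the adjusted p was under 0.05. The difference between both diabetes contrasts was computed here with SciPy 1.17.1 and Benjamini-Hochberg adjustment. The 62 gene lists (1082 symbols, 996 matched) and the comparison were chosen with earlier results of these data known; lists are described by counts and medians over members with an adjusted p, with no list test. Genes are named by rule: past the threshold, carrying a symbol and averaging 20 or more over the severe groups, the 15 largest rises and falls and the 10 of smallest adjusted p each way; from each list up to 6 members past the threshold; and the 10 of smallest p for the difference. Not all are printed. LOC102167708, LOC100624650, IFITM3, PAPP-A, FIBIN, BCAM, CSF1R, EGR1, EGR2, ARNTL, BHLHE40, PLIN2, PLN, MMRN2 and the names in the closing section's observations were chosen after their values were seen. A mean of 3 counts over the severe non-diabetic group would be 0.61. Alternatives were other adjustments, thresholds and scalings. Promoter sequences were not analysed here.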

Additional observations from a re-analysis of the deposited data

Results flagged for a closer look

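For 2 genes the effect of diabetes differed between severe and moderate segments, by the two-sided Wald test of the difference itself with Benjamini-Hochberg adjustment over 17408 genes. LOC100512344 differed by 6.06 on the log2 scale (severe minus moderate). Its mean was 1.38 in severe segments without diabetes and 149.6 with it, and 60.8 and 98.4 in moderate segments. FMN1 differed by -1.19, as its mean was 85.5 and 98.6 in severe and 47.2 and 122 in moderate segments, without and with diabetes. The part of a single segment was not tested.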

How the results depend on the processing

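The counts of 1201 genes higher and 1026 lower were 986 and 818 with adjustment over every gene with a p, 1228 and 987 over genes averaging 10 or more, and 1703 and 1504 at an adjusted p under 0.1. At an adjusted p under 0.01 they fell to 524 and 417, and with a log2 fold change of at least 1 in size to 332 and 597. Centring on the median fold change (a shift of 0.035) gave 925 and 1126. Scaling to the total outside heart muscle genes (a shift of 0.092) gave 672 and 1368, so the share of higher calls went from 53.9% to 32.9%. Of the 1201 rises 672 were kept, and of the 1026 falls all 1026. This scaling lowers every fold change, so rises could only shrink and falls only grow. That all falls were kept does not show them to be firmer than the rises. The difference between the diabetes contrasts counted 2 genes, 2 over every gene with a standard error in both, and 3 with a mean of at least 50 or with each contrast centred, the third being KIAA1211L. Of 226 named genes with a fold change, calls were lost by 26 with adjustment over all genes, 20 with centring and 33 with the other scaling. None changed direction under these alternatives or with a pseudocount of 1. Other adjustments and thresholds cannot change a direction, and the 2 shifts are small beside most called fold changes. The kept directions are therefore no test of these genes. No paired analysis was possible because the tables hold group means and no value per library; for the same reason leaving out replicates and a second count tool were not run. Depth limits genes of low mean: 3 counts over the severe non-diabetic group are a mean of 0.61.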

Other observations

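Several gene families outside the lists above held more than 1 call; they were picked after their values were seen and get no test, and 5.75% of all genes were higher and 4.92% lower. Of the COPII coat genes, which bud vesicles from the endoplasmic reticulum, 8 of 16 were higher and 0 lower: SEC23B averaged 586 without and 907 with diabetes and SEC24A 2175 without and 2744 with diabetes (0.63 ± 0.14 and 0.33 ± 0.08 in the authors' deposited table). Of cytosolic aminoacyl-tRNA synthetases and their scaffold, 6 of 25 were higher and 0 lower, with the glycyl enzyme GARS at 1081 without and 1734 with diabetes (0.68 ± 0.14 and an adjusted p of 0.000241, from the authors' deposited table). Of sphingolipid enzymes and receptors 9 of 34 were higher and 1 lower: beside SPHK1, the glucosylceramide synthase UGCG stood at 1788 without and 4182 with diabetes (1.22 ± 0.23, adjusted p = 1.14e-05 in the authors' deposited table), and the ceramidase ACER2 was the one lower (266 without and 125 with diabetes).

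Basement membrane genes counted 0 higher and 10 lower of 35. COL15A1 (COL15A1_1) averaged 2027 without and 544 with diabetes, agrin (AGRN) 624 without and 313 with diabetes and the laminin chain LAMB2 5532 without and 4016 with diabetes (-1.90 ± 0.29, -0.995 ± 0.19 and -0.46 ± 0.15 in the authors' deposited table). The other copy, COL15A1_2, has the higher mean over the groups and was counted among the collagens, whose lowest log2 fold change was -0.79. Reads may be split between the copies, so the size of the COL15A1 fall is not certain. Names of intraflagellar transport and ciliary genes counted 2 higher and 13 lower of 56, with IFT140, a subunit of the retrograde train, at 434 without and 279.8 with diabetes (-0.63 ± 0.20, adjusted p = 0.0250 in the authors' deposited table). Zinc finger names that begin with ZNF counted 4 higher and 29 lower of 271. Notch pathway genes counted 2 higher and 3 lower of 27. Their median was 0.11, and 18 of the 27 fold changes were positive, so the list as a whole did not fall. NOTCH3, a receptor of arterial smooth muscle, was lower under both names that match it (NOTCH3, 1813 without and 1044 with diabetes; LOC102158881, 2997 without and 1644 with diabetes), as was its target HEYL (1280.3 without and 662 with diabetes).

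A few transcripts were near 0 in 1 group alone. In severe non-diabetic segments 6 genes stood at least 10-fold below every other group, each of which had a mean of at least 10. LOC100517243 averaged 1442, 692 and 0.662 in mild, moderate and severe segments without diabetes and 721 and 668 in moderate and severe segments with it. LOC100621926 was at 0 there and at 154 in severe diabetic segments, at least 253-fold higher against the mean of 3 counts over the group. LOC100525180 stood at 0.210 and 38.7, and LOC100627004 at 7.35 and 604. No reference entry was matched for these names.

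In severe diabetic segments 10 genes stood at least 10-fold above every other group, and the authors' deposited table gives none of them a p. LOC396781 averaged 6.82 in severe non-diabetic, 43.8 in moderate diabetic and 704 in severe diabetic segments. LOC100736878, annotated as a V segment, averaged 6.50, 25.6 and 404. The plasma cell genes IGJ (41.8 without and 120.4 with diabetes) and MZB1 (0.908 without and 7.66 with diabetes) had no p either. Why the p is missing was not tested. Without values per library, whether a single segment carried these means cannot be told, so none of them is called a rise.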
